A study of Schmidtea mediterranea with 5 samples.

Results

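The 7 contigs described here are those that the study's bulk RNA-seq listed as lower after *bmp4* RNAi, with a log2 fold change of -1 or lower in at least 4 of 5 times after amputation, among the first 1200 rows of that list. They are dd_Smed_v6_10089_0, dd_Smed_v6_10486_0, dd_Smed_v6_10578_0, dd_Smed_v6_10625_0, dd_Smed_v6_10673_0, dd_Smed_v6_10730_0 and dd_Smed_v6_10732_0, 7 of the 28040 contigs in the matrices. The fold rule alone was met by 9 contigs, and the other 2 (dd_Smed_v6_100708_0 and dd_Smed_v6_10584_0) did not also have an adjusted p under 0.05 at 4 such times in that list. Bulk values served only to choose the contigs and none is given here. No animal in these libraries received *bmp4* RNAi, so nothing in the values below bears on the response to *bmp4* itself.

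Planarians set their dorsal-ventral axis with a Bmp signal. *bmp4* is transcribed in muscle, mostly dorsally, and the ligand is read by neighbouring tissues, among them the epidermis. The epidermis itself is renewed from dividing stem cells (neoblasts), which give rise to early-stage and then late-stage post-mitotic progenitors that mature as they reach the body surface, and dorsal and ventral epidermis carry different transcripts.

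The values come from droplet-based scRNA-seq of the asexual *Schmidtea mediterranea* strain CIW4, in 5 libraries from fragments taken behind the pharynx, each made from many pooled animals and sorted for cells with the DNA content of non-dividing cells. Tissue was taken right after cutting, at 0 hours post amputation (hpa, 1 library), from wounds facing forward at 6 hpa (1 library) and 16 hpa (2 replicates), and from wounds facing backward at 16 hpa (1 library). The second of the 2 anterior-facing 16 hpa replicates was from animals given 4 feedings of *unc-22* control dsRNA, and the other 4 libraries were from animals without RNAi. In lists of values over libraries below, the order is 0 hpa, 6 hpa, anterior 16 hpa replicates 1 and 2, and posterior 16 hpa, unless stated. The labels write 18 hpa where the methods write 16 hpa, and the latter is used here. By the labels, the 6 hpa library was gated on medium and high calcein and the other 4 libraries on low propidium iodide, so that time and gate cannot be told apart at 6 hpa. The methods differ, as they describe propidium iodide at 6 hpa as well, with cells of intermediate calcein allowed there. They name no propidium iodide for the second 16 hpa anterior-facing replicate.

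The libraries held between 21746895 and 37981205 unique molecular identifiers (UMIs, each 1 captured transcript), and 23632 barcodes were taken as cells, between 3560 and 6827 per library. The median was lowest at 6 hpa, with 1738 UMIs per cell against 3671 to 4414 in the other libraries. Pairs of libraries shared between 1 and 11 cell barcodes. Cells fell into 28 clusters made without the 7 contigs, *equinox* and *bmp4*, and a written list of marker contigs named 18 of them. Epidermal-lineage-like cells (8732) were the largest class, followed by neuron-like (3712), neoblast-like (2250), intestine-like (862), phagocyte-like (824) and muscle-like cells (630). The other 10 clusters, with 28.02% of the cells, stayed unnamed. Ciliated markers were listed but not used for naming, and clusters 15, 18 and 21, where 10 to 14 of them led, were among these. Some clusters came almost from 1 library, and within the epidermal lineage 99.6% of the cells of cluster 12 came from the 6 hpa library and 87.5% of those of cluster 0 from the second 16 hpa anterior-facing library. As a check of the labels, *bmp4* (dd_Smed_v6_17402_0) was 33.5 UMIs per 1000000 UMIs (CPM) in muscle-like cells and had 0 UMIs in 8732 epidermal-lineage-like cells, which allows a share of up to 0.0344% of cells with a UMI. The log2 fold change of *bmp4* in muscle-like cells against all other cells was 4.82 ± 0.45 (SE, edgeR adjusted p = 1.6e-25). Muscle-like cells held 65 UMIs of *bmp4* and all other cells 116, so that muscle cells may also lie in the unnamed clusters.

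Human names for the contigs come from the bulk list and are in doubt, because a second list of the study gave the same name for 0 of the 461 contigs that both name. A check on the cells bore on the first list only in part: of 15 contigs with at least 100 UMIs that it names as ciliary, 14 were at least 2-fold higher in cluster 15, which is led by ciliated markers, against 1 of 7 for the second list. Cluster 15 was itself picked as the one where most ciliated markers led. The check may therefore not be independent of the first list, and it cannot decide between the lists. By the first list, dd_Smed_v6_10673_0 resembles OVOL1, a zinc finger transcription factor that in mammals restrains proliferation of epidermal progenitors. dd_Smed_v6_10730_0 resembles UNC5C, a receptor for the guidance cue netrin, and dd_Smed_v6_10486_0 resembles ELOVL4, an elongase of very long chain fatty acids, which in mammals go into the lipids of the skin barrier. dd_Smed_v6_10578_0 resembles CAV3, the muscle caveolin that coats small pits of the plasma membrane. dd_Smed_v6_10625_0 resembles CTNNAL1, a relative of alpha-catenin, and dd_Smed_v6_10732_0 resembles BCKDHA, a subunit of the mitochondrial enzyme that breaks down branched-chain amino acids. dd_Smed_v6_10089_0 has no human name in the list.

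All 7 contigs were rare transcripts. The most abundant was dd_Smed_v6_10730_0, with 2064 UMIs in 1726 cells (7.30% of all cells). It was followed by dd_Smed_v6_10486_0 (1285 UMIs, 1091 cells), dd_Smed_v6_10673_0 (1032 UMIs, 602 cells) and dd_Smed_v6_10625_0 (962 UMIs, 544 cells). The other 3 were lower, with 482 UMIs of dd_Smed_v6_10089_0, 160 of dd_Smed_v6_10578_0 and 56 of dd_Smed_v6_10732_0. Most cells with a contig held a single UMI of it, and the shares with 2 or more ran from 6.71% for dd_Smed_v6_10578_0 to 35.1% for dd_Smed_v6_10673_0. The highest count in 1 cell was 26 UMIs, of dd_Smed_v6_10625_0. Barcodes with fewer than 100 UMIs, which hold mostly free RNA, carried each contig at between 0.867 and 19.5 CPM, so that single UMIs in cells of other classes are read as possible background.

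**Figure D1:**
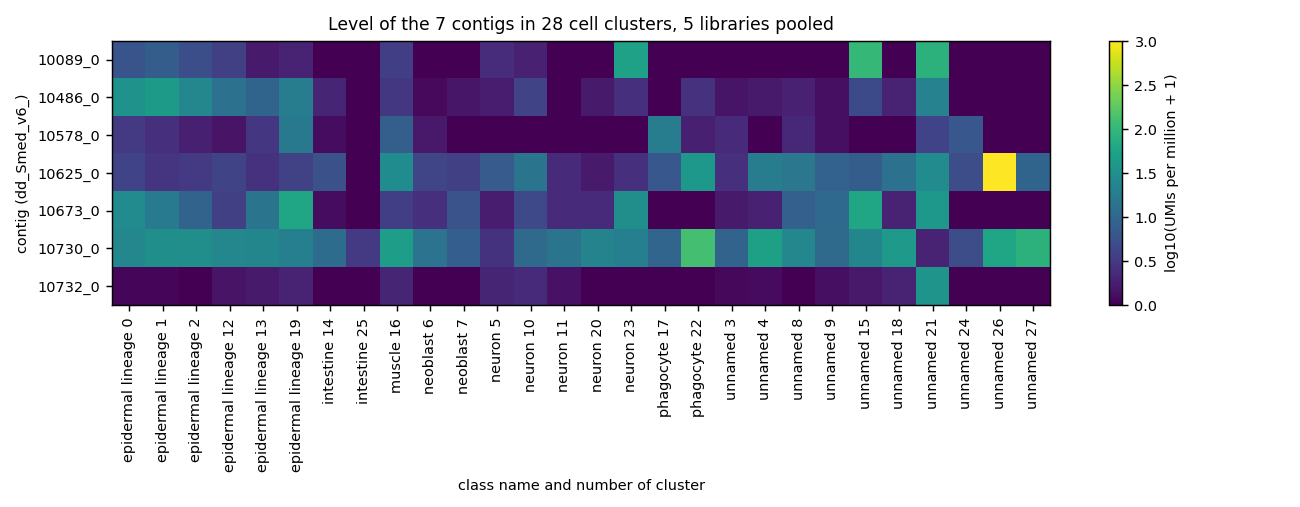
Level of the 7 contigs (rows) in the 28 clusters (columns), as log10 of pooled UMIs per 1000000 UMIs plus 1 over 5 libraries. dd_Smed_v6_10486_0 stands out in epidermal-lineage-like clusters, dd_Smed_v6_10625_0 in cluster 26 (46.3% of its UMIs) and dd_Smed_v6_10732_0 in cluster 21 (34.7 CPM).

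The contigs did not share 1 home. 3 of the 6 that could be tested were higher in epidermal-lineage-like cells than in all other cells, and 1 was lower. Over all 16453 contigs tested, 27.6% were higher and 35.9% were lower. The median log2 fold change was 0.77 over the 6 contigs and -0.01 over all contigs. dd_Smed_v6_10732_0 had too few UMIs to be tested.

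dd_Smed_v6_10486_0, the elongase-like contig, was the most confined to the epidermal lineage, which held 95.3% of its UMIs. Its level in epidermal-lineage-like cells was 31.4 CPM at 0 hpa, 11.96 at 6 hpa, 38.5 and 29.3 in replicates 1 and 2 of the anterior side at 16 hpa and 32.5 in the posterior-facing library. In all other cells it was 1.32, 1.895, 1.13, 0.825 and 1.51 CPM in the same order. The groups did not overlap in any library, and the log2 fold change was 4.74 ± 0.29 (SE, n = 5 libraries, edgeR adjusted p = 1.4e-06). A UMI of it was found in 11.9% of epidermal-lineage-like cells (median 4665.5 UMIs per cell) and in 0.0889% of neoblast-like cells (median 2751.5 UMIs). It was also lower in each of the other 5 named classes against all other cells.

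dd_Smed_v6_10673_0, the OVOL1-like contig, had 75.1% of its UMIs in the epidermal lineage, but with wide differences between libraries. The level there was 8.09 CPM at 0 hpa, 2.39 at 6 hpa, 29.4 and 31.8 in the 2 anterior libraries of 16 hpa and 11.97 in the posterior-facing library. In all other cells it lay between 4.46 and 6.71 CPM in every library, so that the difference was carried by the 16 hpa libraries and had the opposite sign at 6 hpa. The log2 fold change was 1.65 ± 0.50 (SE, higher in 4 of 5 libraries, edgeR adjusted p = 0.017). The call was lost without the first anterior-facing 16 hpa library (1.19, adjusted p = 0.11), without the second (1.13, adjusted p = 0.085) and without the posterior-facing library (1.69, adjusted p = 0.054), and also in cells with under 10% mitochondrial UMIs (0.68, adjusted p = 0.24). A UMI of it was found in 4.75% of epidermal-lineage-like cells and in 0 of 824 phagocyte-like cells, which allows a share of up to 0.364%.

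dd_Smed_v6_10730_0, the netrin-receptor-like contig, was spread over more tissues. In epidermal-lineage-like cells it was 27.9 CPM at 0 hpa, 21.1 at 6 hpa, 35.1 and 22.1 in the 2 anterior libraries of 16 hpa and 29.5 in the posterior-facing library. All other cells gave 15.2, 9.29, 27.6, 27.9 and 17.5 CPM in that order. The contig was higher in the epidermal lineage in 4 libraries and lower in the second 16 hpa anterior-facing library, with a log2 fold change of 0.74 ± 0.19 (SE, edgeR adjusted p = 0.0086).

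**Figure D2:**
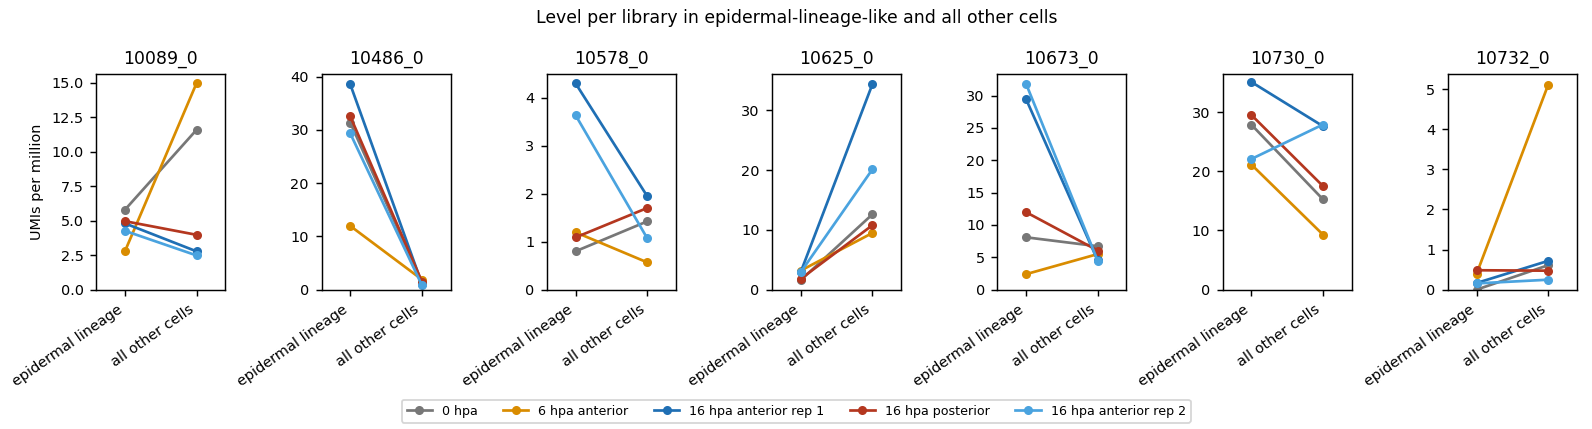
UMIs per 1000000 UMIs of each contig in epidermal-lineage-like cells (left of each panel) and in all other cells (right), with 1 line per library; each panel has its own scale. dd_Smed_v6_10486_0 falls from 11.96 to 38.5 CPM down to at most 1.895 in all 5 libraries, while dd_Smed_v6_10673_0 falls in 4 of 5 and dd_Smed_v6_10625_0 goes the other way in all 5.

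The remaining contigs did not pass the test as higher in the epidermal lineage. dd_Smed_v6_10625_0 was lower there in 5 of 5 libraries, with a log2 fold change of -2.56 ± 0.24 (SE, edgeR adjusted p = 2.0e-05). dd_Smed_v6_10578_0 gave 0.80 ± 0.42 (SE, edgeR adjusted p = 0.13), and dd_Smed_v6_10089_0 gave 0.01 (edgeR adjusted p = 0.99). This last value covers libraries of opposite sign. dd_Smed_v6_10089_0 was 5.79 CPM in epidermal-lineage-like cells against 11.6 in all other cells at 0 hpa and 2.79 against 15.0 at 6 hpa, and it was higher in epidermal-lineage-like cells in the 3 libraries at 16 hpa.

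Muscle is where *bmp4* itself is transcribed, and 3 of the 7 contigs were higher in muscle-like cells and 2 were lower. Over all 14347 contigs tested, 18.3% were higher and 29.9% lower, and the median log2 fold change was 0.93 over the 7 contigs and -0.27 over all contigs. dd_Smed_v6_10625_0, the alpha-catenin relative, was 23.1 CPM at 0 hpa, 30.5 at 6 hpa, 30.5 and 27.9 in the 2 anterior libraries of 16 hpa and 29.6 in the posterior-facing library, on 4 to 16 UMIs per library. It was above all other cells in 5 of 5 libraries, with a log2 fold change of 1.60 ± 0.31 (SE, edgeR adjusted p = 1.8e-06).

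dd_Smed_v6_10730_0 was higher in muscle-like cells in 5 of 5 libraries as well, at 44.3, 15.3, 61.01, 50.2 and 44.4 CPM in the same order, and its log2 fold change was 1.15 ± 0.23 (SE, edgeR adjusted p = 3.9e-06). In cells with under 10% mitochondrial UMIs it was 0.55 and lost the call (adjusted p = 0.20). The caveolin-like dd_Smed_v6_10578_0 had 14 UMIs in the 630 muscle-like cells and was 9.64, 0, 11.4, 5.57 and 2.47 CPM. Its log2 fold change of 2.19 ± 0.62 (SE, edgeR adjusted p = 0.0015) rested on the 0 hpa library, without which it was 1.65 (adjusted p = 0.067). dd_Smed_v6_10486_0 (-2.72, edgeR adjusted p = 2.4e-05) and dd_Smed_v6_10673_0 (-2.003, edgeR adjusted p = 0.0028) were lower in muscle-like cells, and the latter lost its call without the second 16 hpa anterior-facing library (-1.50, adjusted p = 0.059).

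The same 3 contigs were higher in phagocyte-like cells as a class, which joins 2 clusters where they differed. dd_Smed_v6_10578_0 was 17.2 CPM pooled in cluster 17 and 0.841 in cluster 22, while dd_Smed_v6_10625_0 (5.52 and 38.7 CPM) and dd_Smed_v6_10730_0 (8.58 and 127 CPM) had the reverse order. Over the class as a whole the differences were as follows. dd_Smed_v6_10578_0 was 10.3 CPM pooled there, with a log2 fold change of 2.92 (edgeR adjusted p = 1.8e-05). dd_Smed_v6_10730_0 was 58.5 CPM, its highest level of any named class, with 1.54 (edgeR adjusted p = 5.0e-07). dd_Smed_v6_10625_0 was 19.5 CPM, with 0.99 (edgeR adjusted p = 0.016), although it had 0 UMIs in phagocyte-like cells of the 6 hpa library. 3 others were lower, among 6 tested, against 22.3% of all contigs higher and 34.4% lower.

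In the last 3 named classes no contig was higher by edgeR's test, and all fitted log2 fold changes of the contigs tested were below 0. 5 of 6 tested were lower in neoblast-like cells (25.5% of all contigs higher, 35.7% lower), 5 of 6 in neuron-like cells (25.4% higher, 32.3% lower) and 4 of 6 in intestine-like cells (16.9% higher, 32.9% lower). dd_Smed_v6_10089_0 had 0 UMIs in 2250 neoblast-like cells, which allows a share of up to 0.133%, and dd_Smed_v6_10578_0 had 0 in 3712 neuron-like cells, which allows up to 0.0808%. The gate for non-dividing cells limits what the neoblast-like class can hold. Of its 2250 cells, 1046 were in cluster 7, which came to 97.7% from the 6 hpa library and had a median of 1462 UMIs.

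*equinox* (dd_Smed_v6_20318_0), a secreted protein with thrombospondin and EGF domains the other gene that the study follows, shared the epidermal side of this pattern only. Its log2 fold change was 1.19 in epidermal-lineage-like cells (edgeR adjusted p = 0.0012), 1.79 in neoblast-like cells (edgeR adjusted p = 0.00037) and -2.77 in muscle-like cells (edgeR adjusted p = 0.0028).

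Contigs that the list pairs with parts of the Bmp pathway had other homes. Noggins bind Bmp ligands outside the cell, SKI holds back Smad-driven transcription and WFIKKN2 binds ligands of the wider TGF-beta family. All 4 were lower in epidermal-lineage-like cells. The noggin-like dd_Smed_v6_10469_0 was higher in muscle-like cells by 4.79 on the log2 scale (edgeR adjusted p = 9.4e-169), close to *bmp4* in size. The other noggin-like contig, dd_Smed_v6_10386_0, was higher in phagocyte-like cells (3.27, edgeR adjusted p = 5.5e-11), and the SKI-like dd_Smed_v6_10394_0 (3.75, edgeR adjusted p = 1.4e-09) and WFIKKN2-like dd_Smed_v6_1072_0 (6.06, edgeR adjusted p = 6.1e-06) in neuron-like cells. The last of these was rare, with 108 UMIs in 42 cells. It was also on the list of muscle markers used to name clusters, yet had 0 UMIs in the 630 muscle-like cells.

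Several of the highest levels lay in clusters with no name. dd_Smed_v6_10625_0 was by far the highest in cluster 26, where 138 cells held 445 of its 962 UMIs (46.3%). The level there was 291.9 CPM at 0 hpa (a UMI in 7 of 42 cells), 1989 and 1477 in the 2 anterior libraries of 16 hpa (27 of 32 and 21 of 38 cells) and 193.9 in the posterior-facing library (7 of 23 cells), and only 3 cells came from 6 hpa. Both anterior-facing libraries were above the other two libraries in level and in share of cells. No test was made of these values.

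dd_Smed_v6_10732_0, the BCKDHA-like contig, had most of its UMIs in cluster 21, where 10 ciliated markers led. Of its 56 UMIs, 34 were there, and 26 of those came from the 6 hpa library, which made up 66.1% of the cluster. The level in cluster 21 was 42.9 CPM at 0 hpa, 56.6 at 6 hpa and 30.9 in the first 16 hpa anterior-facing library, with 0 UMIs in 48 cells of the second and in 30 cells of the posterior-facing wound.

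dd_Smed_v6_10089_0 was highest in the unnamed clusters 15 and 21 and the neuron-like cluster 23, at 101, 85.7 and 51.9 CPM pooled. Cluster 15 was led by 14 ciliated and 10 neuron markers, and the level there was 145 CPM at 0 hpa, 42.5 and 79.8 in the 2 anterior libraries of 16 hpa and 82.1 in the posterior-facing library. In cluster 21 it was 168 CPM at 6 hpa and 34.3 at 0 hpa. dd_Smed_v6_10673_0 also had one of its highest levels in cluster 15 (59.5 CPM), equal to that in the epidermal-lineage-like cluster 19 (59.5 CPM). Cluster 15, which stands outside the epidermal-lineage-like class, thus held high levels of both dd_Smed_v6_10089_0 and dd_Smed_v6_10673_0. The Pearson correlation of their log2 levels over 27 clusters was 0.73, the highest of the 21 pairs. Single cells with both numbered 21, against 25.6 expected within library and cluster or sub-cluster. Next was dd_Smed_v6_10486_0 with dd_Smed_v6_10673_0 (0.69), and the lowest was dd_Smed_v6_10730_0 with dd_Smed_v6_10732_0 (-0.38). Clusters share libraries and depth, so that these are descriptions.

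Within the epidermal lineage, 7 sub-clusters were made without the 7 contigs, of which 5 (7599 cells) had high levels of the early-stage marker contigs dd_Smed_v6_332_0 and dd_Smed_v6_61_0 and 2 (1133 cells) did not. Early-stage progenitors are the first cells of the lineage after division has ended. The name rests on those 2 markers. Each of the 5 sub-clusters was also above both others in the listed late-stage markers dd_Smed_v6_363_0 and dd_Smed_v6_69_0. The latter was 9118 to 18123 CPM there, against 1282 and 1045. Another late-stage marker, dd_Smed_v6_920_0, was highest in 1 of the 2 others. Whether the 5 sub-clusters also hold late-stage progenitors was not tested. 2 of the 5 contigs tested were higher in the early-stage sub-clusters and 1 was lower, against 7.26% and 7.57% of the 9912 contigs tested, and the median log2 fold change was 0.53 over the 5 and 0.02 over all contigs.

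dd_Smed_v6_10486_0 was 33.3 CPM at 0 hpa, 13.4 at 6 hpa, 46.7 and 33.1 in the 2 anterior libraries of 16 hpa and 35.4 in the posterior-facing library in early-stage cells. The other epidermal-lineage-like cells gave 5.69, 2.94, 3.49, 8.60 and 8.09 CPM, below the early-stage level in every library. The log2 fold change was 2.47 ± 0.22 (SE, edgeR adjusted p = 4.0e-07). The joined groups differed, with a mean over libraries of 0.897 CPM in sub-cluster 4 and 16.6 in sub-cluster 6. Means in the early sub-clusters ran from 7.56 to 63.8 CPM. Sub-clusters 4 and 6 were not tested apart.

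dd_Smed_v6_10089_0 was present in early-stage cells of all 5 libraries at 3.23 to 6.23 CPM, 190 UMIs in all, and had 0 UMIs in the 1133 other cells of the lineage. Against a floor of 3 UMIs over that group it was at least 9.17-fold higher in early-stage cells (edgeR adjusted p = 0.00070). So although this contig did not set the epidermal-lineage-like class apart from other cells, within that class it was found in early-stage cells only. The depth allows up to 0.265% of the other cells of the class to hold a UMI. Clusters 15 and 21, which are led by ciliated markers and high in this contig, lie outside the class. Whether they hold mature epidermal cells was not tested.

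dd_Smed_v6_10578_0 went the other way, with a log2 fold change of -1.80 ± 0.47 (SE, edgeR adjusted p = 0.015), which was lost without the first 16 hpa anterior-facing library (-1.38, adjusted p = 0.22). In cells with at least 1000 UMIs it turned to 0.30 without a call (adjusted p = 0.77). The mean level of dd_Smed_v6_10578_0 over libraries was 1.32 CPM in sub-cluster 4 and 13.7 in sub-cluster 6. dd_Smed_v6_10730_0 was higher in early-stage cells in 5 of 5 libraries, by 0.53 ± 0.17 on the log2 scale (SE, edgeR adjusted p = 0.052), and passed the threshold without the posterior-facing library (0.59, adjusted p = 0.041) or without the second 16 hpa anterior-facing library (0.73, adjusted p = 0.040).

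dd_Smed_v6_10673_0 gave -0.51 (edgeR adjusted p = 0.25), from libraries that did not line up. It was 6.55 CPM in early-stage and 28.4 in the other cells at 0 hpa, 2.77 and 0 at 6 hpa, 24.7 and 49.8 in the first 16 hpa anterior-facing library, 31.9 and 31.4 in the second, and 12.3 and 9.25 in the posterior-facing library. In cells with under 10% mitochondrial UMIs the sign turned and the difference passed the test (1.54, adjusted p = 0.0016). Among the other cells, dd_Smed_v6_10673_0 had a mean over libraries of 10.8 CPM in sub-cluster 4 and 49.7 in sub-cluster 6. *equinox* was lower in early-stage cells (-1.38, edgeR adjusted p = 0.0011), with its highest pooled level, 41.1 CPM, in the sub-cluster high in the neoblast marker dd_Smed_v6_659_0.

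The early-stage cells were themselves divided. The largest early sub-cluster (2411 cells, median 4924 UMIs) was nearly free of dd_Smed_v6_10730_0, with 17 UMIs against 953 in the 5188 cells of the other 4 early sub-clusters. Its level there was 0.629 CPM at 0 hpa, 1.73 at 6 hpa, 3.58 and 1.92 in the 2 anterior libraries of 16 hpa and 0.428 in the posterior-facing library. The other early sub-clusters gave 43.4, 31.4, 52.0, 34.6 and 43.4 CPM, a pooled ratio of 28.3. Every library showed the gap, and the levels of the 2 groups did not come near each other.

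Among the 6 contigs with at least 10 UMIs in early-stage cells, 4 were lower in this sub-cluster in 5 of 5 libraries, as were 4.77% of all contigs with as many UMIs. Beside dd_Smed_v6_10730_0 these were 3 further contigs. dd_Smed_v6_10486_0 was 8.50 against 47.4 CPM pooled, dd_Smed_v6_10673_0 was 6.35 against 24.0 and dd_Smed_v6_10089_0 was 2.32 against 7.06. *equinox* was 1.89 against 12.4 CPM, also lower in 5 of 5 libraries. The rarer dd_Smed_v6_10578_0 (1.55 against 1.69 CPM) and dd_Smed_v6_10625_0 (2.32 against 2.38) were lower in 2 of 5 libraries each, and dd_Smed_v6_10732_0 had 4 UMIs in all and was lower in 1 of 5. The sub-cluster was described after its values had been seen and has no test. It had the early-stage marker dd_Smed_v6_332_0 at 9675 CPM, above all other sub-clusters, and its leading contig was dd_Smed_v6_12320_0.

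The contigs also had different high points among the other sub-clusters. dd_Smed_v6_10486_0 was highest in sub-cluster 2, at 71.7, 52.0, 81.4, 53.8 and 60.2 CPM in the library order above, and dd_Smed_v6_10089_0 was highest there too (11.8 CPM pooled). dd_Smed_v6_10673_0 was highest in sub-cluster 5, with 104 and 126 CPM in the 2 anterior libraries of 16 hpa, 39.8 in the posterior-facing library, 9.32 at 0 hpa and 3.27 at 6 hpa. It was also high in sub-cluster 6 (59.6 CPM pooled), which held the highest level of dd_Smed_v6_10578_0 (16.7 CPM). That sub-cluster was low in both early-stage markers and highest in the late-stage marker dd_Smed_v6_920_0 (4193 CPM). Yet it was the lowest in the listed late-stage markers dd_Smed_v6_363_0 (209 CPM) and dd_Smed_v6_69_0 (1045 CPM).

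Without regard to sub-cluster or depth, some of the contigs tended to be found in the same epidermal-lineage-like cells. For each contig, the cells were divided by whether any of the other 6 had a UMI. 4 of the 6 contigs tested were higher in cells with another of the set, each in 5 of 5 libraries. The fits did not account for sub-cluster, and the same 4 contigs were those lower in the largest early sub-cluster in 5 of 5 libraries. dd_Smed_v6_10486_0 was higher by 0.77 ± 0.09 on the log2 scale (SE, edgeR adjusted p = 2.2e-07, 3.26% of all contigs higher in this fit), with 47.8 against 27.7 CPM at 0 hpa, 20.6 against 11.03 at 6 hpa, 50.4 against 33.8 and 46.5 against 25.2 in the 2 anterior libraries of 16 hpa and 44.5 against 29.6 in the posterior-facing library.

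dd_Smed_v6_10730_0 was higher by 0.56 ± 0.11 (SE, edgeR adjusted p = 0.00013, 5.61% of all contigs higher). dd_Smed_v6_10673_0 was higher by 0.67 ± 0.13 (SE, edgeR adjusted p = 0.00043, 4.92% of all contigs higher), and lost the call without the second 16 hpa anterior-facing library (0.34, adjusted p = 0.33). dd_Smed_v6_10089_0 was higher by 0.88 ± 0.25 (SE, edgeR adjusted p = 0.024, 5.09% of all contigs higher), and lost the call without the 0 hpa library (0.64, adjusted p = 0.28) or without the first 16 hpa anterior-facing library (0.77, adjusted p = 0.10). dd_Smed_v6_10578_0 (0.41, edgeR adjusted p = 0.65, 5.11% of all contigs higher) and dd_Smed_v6_10625_0 (0.34, edgeR adjusted p = 0.69, 5.05% of all contigs higher) did not pass, and dd_Smed_v6_10732_0 was too low to test (5.22% of the other contigs higher).

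Depth moved with this division, as cells with another contig of the set had a median of 5044 to 5122.5 UMIs and the others 4513 to 4575. With every cell thinned to 1000 UMIs, 3 contigs could still be tested and 0 passed with edgeR, with log2 fold changes of 0.84 for dd_Smed_v6_10486_0, 0.70 for dd_Smed_v6_10673_0 and 0.28 for dd_Smed_v6_10730_0. At an unadjusted p under 0.05 there was 1 with edgeR, dd_Smed_v6_10486_0; DESeq2 was not run on thinned cells.

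Counted by cells, 3399 of the 23632 cells held 1 of the 7 contigs, 491 held 2, 37 held 3 and 5 held 4, and all 5 of the last were epidermal-lineage-like. Summed over the 21 pairs there were 632 cells with both contigs of a pair against 420 expected if detection were independent within library and class, a ratio of 1.51 (95% Poisson interval 1.39 to 1.63). A cell with 3 or 4 of the contigs enters several pairs, and the interval takes these counts as independent and covers counting error only, not the spread between libraries, so that it is too narrow. Within library and sub-cluster the ratio was 1.13 (1.04 to 1.22), a smaller excess than within class. Thinned to 1000 UMIs, the ratio within library and class was 1.63 on 60 pair-cells (1.25 to 2.10).

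The pairs differed. dd_Smed_v6_10486_0 with dd_Smed_v6_10730_0 was the most frequent, in 177 cells against 122 expected within class and 178 within sub-cluster. dd_Smed_v6_10486_0 with dd_Smed_v6_10673_0 was in 105 cells against 54.0 within class and 75.2 within sub-cluster, and so kept an ratio of 1.397. dd_Smed_v6_10089_0 with dd_Smed_v6_10732_0 was in 10 cells, 9 of them from the 6 hpa library. The expected number was 1.59 within class and 5.25 within cluster or sub-cluster. dd_Smed_v6_10730_0 and dd_Smed_v6_10732_0 were never found together (0 cells against 2.42 expected within class), where the upper limit of the ratio was 1.52.

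**Figure D3:**
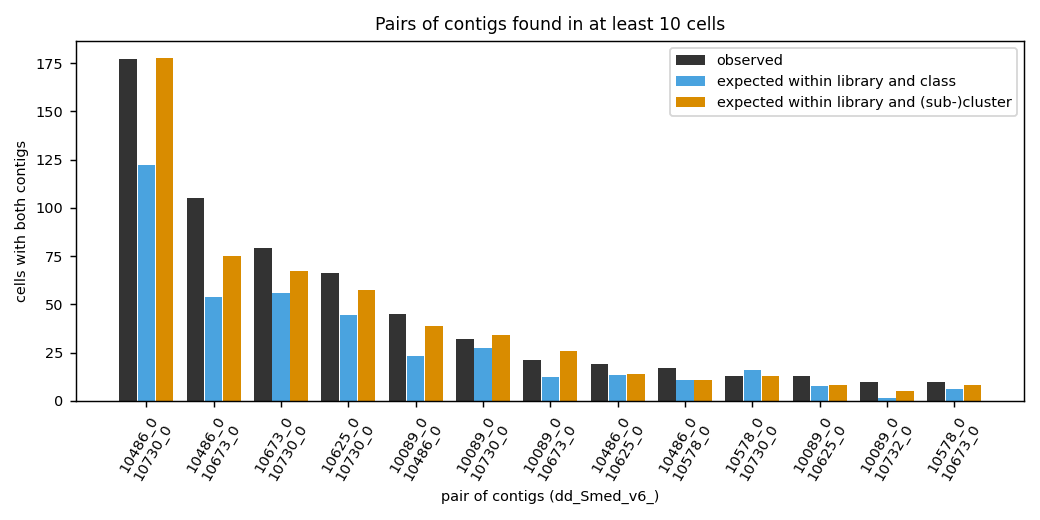
Cells holding both contigs of a pair, for pairs seen in at least 10 cells (dark), beside the number expected if detection were independent within library and class (blue) and within library and cluster or sub-cluster (orange). dd_Smed_v6_10486_0 with dd_Smed_v6_10673_0 exceeds both expectations (105 against 54.0 and 75.2), and dd_Smed_v6_10486_0 with dd_Smed_v6_10730_0 only the first (177 against 122 and 178).

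Across libraries, levels over all cells combine the share of each cell type with the level within it, and the 2 cannot be told apart in these sums. dd_Smed_v6_10673_0 was 7.40 CPM at 0 hpa, 4.50 at 6 hpa, 14.1 and 18.6 in the 2 anterior libraries of 16 hpa and 8.65 in the posterior-facing library. dd_Smed_v6_10625_0 was 7.05, 7.45, 22.4, 11.3 and 6.84 CPM in that order. For both contigs the 2 anterior-facing libraries at 16 hpa were above the other 3. The same held for dd_Smed_v6_10578_0 (2.85 and 2.40 CPM against at most 1.43) and dd_Smed_v6_10730_0 (30.5 and 24.9 CPM against at most 22.8). The share of all contigs with this order was not computed.

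dd_Smed_v6_10486_0 was 16.5, 5.14, 15.5, 15.5 and 15.1 CPM in that order, nearly level but for 6 hpa. dd_Smed_v6_10089_0 was 8.66 CPM at 0 hpa and 11.05 at 6 hpa against 3.39 to 4.40 at 16 hpa. dd_Smed_v6_10732_0 was 3.60 CPM at 6 hpa and at most 0.507 in the other libraries. The 6 hpa library thus held the highest level of the last 2 and the lowest level of dd_Smed_v6_10486_0, dd_Smed_v6_10578_0, dd_Smed_v6_10673_0 and dd_Smed_v6_10730_0, and it was also the one with another gate and the lowest depth.

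**Figure D4:**
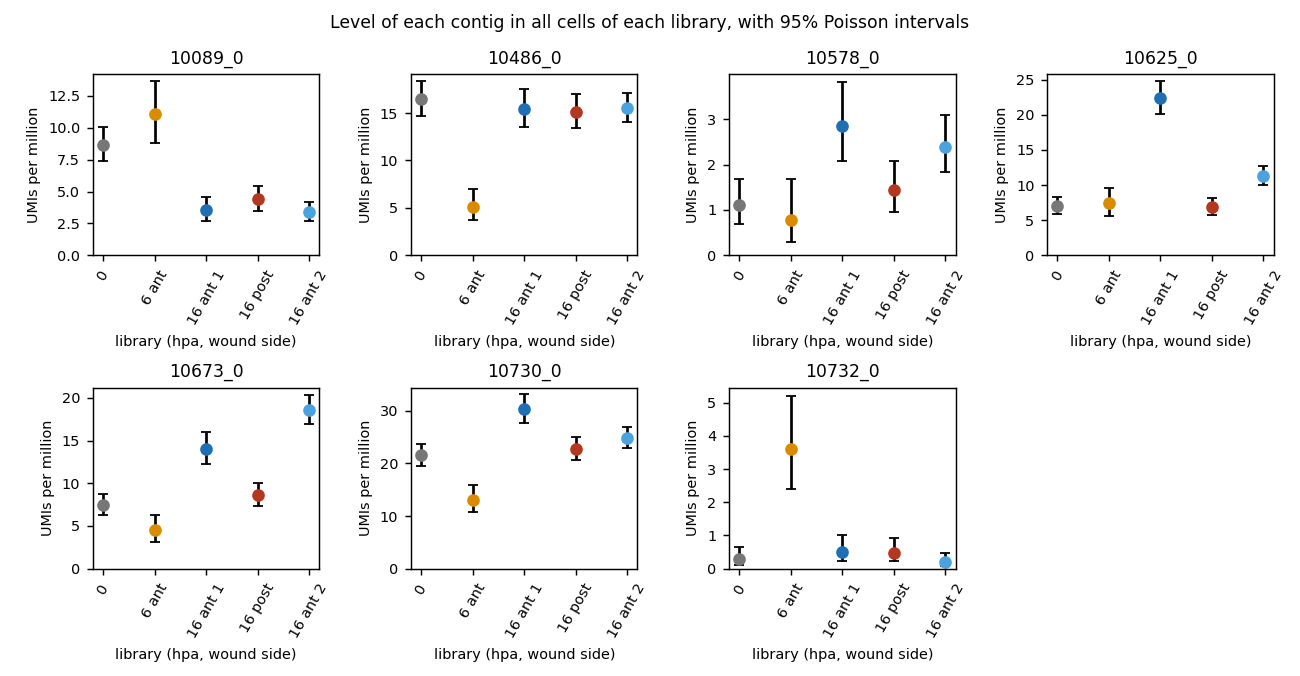
UMIs per 1000000 UMIs of each contig over all cells of each library, with 95% Poisson intervals that cover counting error only; each panel has its own scale. dd_Smed_v6_10673_0 is highest in the 2 anterior-facing libraries at 16 hpa (14.1 and 18.6 CPM) and dd_Smed_v6_10732_0 at 6 hpa (3.60 CPM).

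For the wound side, only the 16 hpa libraries can be set side by side. The posterior-facing library was below both anterior-facing libraries for 5 of 7 contigs and above both for 1, dd_Smed_v6_10089_0, where 27.9% of all contigs with at least 10 UMIs were below both and 31.7% above both. The gap of dd_Smed_v6_10486_0 was small (15.1 CPM against 15.5 and 15.5). Among epidermal-lineage-like cells alone it was below both for 3 and above both for 1 of the 6 contigs with at least 10 UMIs there (32.6% and 34.3% of all contigs). In cells with under 10% mitochondrial UMIs it was below both for 4 and above both for 3 of 7 (39.7% and 26.5% of all contigs). The direction was thus not shared by the contigs in every set of cells. dd_Smed_v6_10673_0 kept the gap within the epidermal lineage, at 29.4 and 31.8 CPM for the anterior-facing wounds against 11.97 for the posterior-facing wound. Over all cells with under 10% mitochondrial UMIs the gap was smaller, at 15.9 and 14.4 against 12.3 CPM. No test of the side was made, since the posterior side had 1 library and the 2 anterior-facing replicates differed in control dsRNA.

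The contigs most like each of the 7 over clusters were sought among 14653 contigs with at least 100 UMIs, by the Pearson correlation of log2 levels over 27 clusters. dd_Smed_v6_10486_0 was closest to dd_Smed_v6_45837_0 (0.98), dd_Smed_v6_3683_0 (0.96) and dd_Smed_v6_13531_0 (0.96). dd_Smed_v6_10732_0 was closest to dd_Smed_v6_4179_0 (0.97), dd_Smed_v6_3749_0 (0.97) and dd_Smed_v6_7515_0 (0.96), and dd_Smed_v6_10089_0 to dd_Smed_v6_9265_0 (0.97), dd_Smed_v6_9995_0 (0.93) and dd_Smed_v6_12844_0 (0.93). These 3 contigs thus had close companions.

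dd_Smed_v6_10625_0 was closest to dd_Smed_v6_2293_0 (0.92), dd_Smed_v6_21690_0 (0.91) and dd_Smed_v6_13617_0 (0.90), and dd_Smed_v6_10673_0 to dd_Smed_v6_7770_0 (0.91), dd_Smed_v6_6904_0 (0.91) and dd_Smed_v6_7209_0 (0.89). dd_Smed_v6_10730_0 was less like any other contig, with dd_Smed_v6_10269_0 (0.78), dd_Smed_v6_28951_0 (0.69) and dd_Smed_v6_8606_0 (0.67) at the top. dd_Smed_v6_10578_0 had dd_Smed_v6_10477_0 (0.72), dd_Smed_v6_71655_0 (0.69) and dd_Smed_v6_10872_0 (0.68). None of the 7 was among the 3 closest contigs of another.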

How the data were processed

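Reads were mapped by the authors with Cell Ranger (4 in the matrix headers) to Smed_v6 transcripts collapsed by their Smes_g4 position, and the authors deposited raw UMI counts per contig and barcode (28040 contigs, 6794880 barcodes per library, not filtered to cells). Among the 10000 barcodes with most UMIs the 99th percentile was taken, and barcodes reaching 10% of it with 200 to 2500 genes were kept. Counts were scaled to 10000 per cell, log-transformed and scaled within library, and clustered (scanpy 1.11.5, leidenalg 0.10.2, 20 neighbours, 2000 variable contigs; all cells at 11 dimensions and resolution 1, the epidermal lineage at 14 and 0.5). A cluster was named when at least 3 markers of a class exceeded the median cluster by 2-fold or more (10 CPM added), unless its 10 leading contigs held more markers of another class. This last condition, which left clusters 9 and 15 unnamed, was added after the data were seen.

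UMIs were summed per library and group and tested with edgeR 4.0.16 (quasi-likelihood, TMM, filterByExpr, library as block, Benjamini-Hochberg over all contigs tested, threshold 0.05), which was tested on simulated data. Standard errors are approximate. P-values rest on a spread between 5 libraries that edgeR moderates over all contigs tested, so they do not measure each contig's own spread. In the fit of muscle-like cells they rest almost wholly on the spread pooled over contigs. Scrublet marked 0.22% of the cells, so that doublets were not settled. Named contigs were the 7, *equinox*, *bmp4*, the 4 Bmp pathway contigs and the 3 most alike per contig (5 CPM added, log2). The members and lists were chosen with earlier results of these data known. Alternatives were DESeq2 1.42.0, no TMM, no filter, each library left out, other marker rules and resolutions, and other filters on cells. R 4.3.3 and Python 3.11.15 were used.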

Additional observations from a re-analysis of the deposited data

Results flagged for a closer look

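Some contigs had differences of opposite direction between groups of libraries, which were not tested. dd_Smed_v6_10089_0 in epidermal-lineage-like cells was at 5.79 CPM at 0 hpa and 2.79 CPM at 6 hpa, below all other cells, and above them at 16 hpa. dd_Smed_v6_10578_0 was above all other cells in the 16 hpa anterior-facing libraries (4.30 and 3.64 CPM) and below them at 0 hpa and at the posterior-facing wound. dd_Smed_v6_10673_0 was below all other cells at 6 hpa only (2.39 CPM), and within the lineage it was lower in early-stage cells at 0 hpa (6.55 CPM) but slightly higher at the posterior-facing wound.

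All 7 contigs also appeared in barcodes with fewer than 100 UMIs, which no comparison used. The levels there were 4.01 CPM for dd_Smed_v6_10089_0, 14.9 for dd_Smed_v6_10486_0, 1.30 for dd_Smed_v6_10578_0, 9.43 for dd_Smed_v6_10625_0, 11.2 for dd_Smed_v6_10673_0, 19.5 for dd_Smed_v6_10730_0 and 0.867 for dd_Smed_v6_10732_0.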

How the results depend on the processing

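Depth limited these results, as most cells with a contig held 1 UMI of it, and dd_Smed_v6_10732_0 was tested in few fits. Leaving out 1 library each, the number of contigs higher was 2 to 3 in epidermal-lineage-like cells, 2 to 3 in muscle-like cells, 2 to 3 in early-stage cells and 3 to 4 in cells with another of the 7. Library was a block in every fit. Cell groups were thereby compared within libraries. No paired analysis was possible between times or wound sides, where the groups of libraries share replicate number 1 only. That number counts libraries within each group and does not match animals across libraries.

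The number in muscle-like cells was 1 under 10% mitochondrial UMIs (against 3 as reported). In early-stage cells it was 0 with markers set against all other cells, where 2 libraries entered the fit, edgeR called 0 and 0 had an unadjusted p under 0.05, and 1 at a lower resolution (against 2 as reported). In cells with another contig it was 2 with DESeq2, 2 under 10% mitochondrial UMIs, 2 with at least 1000 UMIs per cell and 0 when thinned (against 4 as reported). The pair ratio was 1.13 within sub-cluster and 1.63 when thinned. Epidermal-lineage-like cells alone gave 3 contigs with the posterior-facing library lowest. The cause of these shifts was not tested, except that thinning removes UMIs.

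The sign turned for dd_Smed_v6_10089_0 in epidermal-lineage-like cells with DESeq2 (-0.11), without TMM (-0.23), without a filter (-0.053), under 10% mitochondrial UMIs (-0.84) and without each 16 hpa library (over all libraries left out, -0.31 to 0.34), all without a call. It turned for dd_Smed_v6_10578_0 there with the other marker rule (-0.065), under 10% mitochondrial UMIs (-0.47) and with at least 1000 UMIs (-0.025), and in early-stage cells with at least 1000 UMIs (0.30). In early-stage cells it turned for dd_Smed_v6_10673_0 with the other marker rule (0.42), under 10% mitochondrial UMIs (1.54) and with at least 1000 UMIs (0.14), and for dd_Smed_v6_10730_0 with the other marker rule (-0.96).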
